A study of Rattus norvegicus with 54 samples.

Results

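Cultures given rMBD3 by virus were compared with untransfected cultures at 6 h, in RNA sequencing libraries of neuron cultures from the cortex of E18 rat embryos (embryonic day 18). The comparison used 12 of the 54 libraries of the study and took its groups from the labels: 6 libraries of rMBD3 cultures and 6 of untransfected cultures. The rMBD3 cultures had received an adeno-associated virus carrying rMBD3 and GFP under the SYN promoter (labelled AAV_SYN_rMBD3_GFP), and the untransfected cultures had received no virus. Within each group, 3 libraries came from medium with magnesium and 3 from medium without it, the latter labelled Epileptic. Cell culture numbers 1 to 3 were shared by all groups, so each rMBD3 library had an untransfected partner of the same medium and culture number, giving 6 pairs. A further set of 6 libraries at 6 h came from cultures given a virus with GFP under the same promoter (GFP cultures), and all 3 kinds of culture were also sampled at 2 h and 24 h. The study concerned the role of Mbd3 in epileptogenesis. Because the untransfected cultures had no virus, the contrast holds the effects of the virus, of GFP and of rMBD3 together, and the GFP libraries are given beside it for that reason.

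MBD3 is a core subunit of the NuRD complex, which joins a nucleosome-remodelling ATPase with histone deacetylases and is mostly known for restraining transcription. Unlike its close relative MBD2, mammalian MBD3 binds methylated DNA poorly. The SYN promoter drives expression mainly in neurons, so glia that share the dish would be expected to make little of the construct. Removing magnesium lifts the block of NMDA receptors and makes cultured neurons fire in synchronous bursts, a common cell model of seizures.

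Genes are given by Ensembl identifier, since the count table carried no symbols and 0 of its 30560 identifiers matched the symbol table at hand. For the same reason the labelled cell type was not checked against marker genes. In bulk RNA, fewer cells of a type and less RNA per cell cannot be told apart. Total counts of the 12 libraries ran from 22642114 to 31712521, so that 3 counts, taken as the smallest level a library could show, equalled 0.0946 to 0.132 CPM, the count scaled to a common library size. This floor covers counting error only.

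Culture 1 stood apart from cultures 2 and 3. The first principal component of the 12 libraries held 36.8% of the variance, and culture number accounted for 91.6% of that component. Its scores were 37.9 to 81.6 in the 4 libraries of culture 1 and -49.2 to -13.6 in the other 8. The second component held 14.6% of the variance, and 81.5% of it lay between rMBD3 and untransfected libraries. The untransfected library of culture 1 in magnesium medium had 4.90% of its counts on mitochondrially encoded genes, against 1.80% to 2.05% in the other 5 untransfected libraries. This share was 2.30% to 4.08% in the rMBD3 libraries and 1.89% to 4.10% in the GFP libraries of 6 h. The counts of genes called at 6 h and the fold changes of the named genes over untransfected cultures at 6 h are therefore also given without culture 1.

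At 6 h, 732 of 15588 tested genes differed between rMBD3 and untransfected cultures (4.70% of those tested, adjusted p under 0.05 by edgeR's quasi-likelihood test). Of these, 492 were higher in rMBD3 cultures (3.16%) and 240 were lower (1.54%). The higher genes rose by a median log2 fold change of 0.77 (quartiles 0.56 and 1.11), and the lower genes fell by less, with a median of -0.50 (quartiles -0.66 and -0.41). Over all tested genes the median was -0.00. At least a 2-fold change was seen in 149 of the higher genes and in 31 of the lower genes.

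The sign was the same in all 6 pairs for 468 of the 492 higher genes and for 208 of the 240 lower genes. For 199 of the higher genes every rMBD3 library lay above every untransfected library, and for 87 of the lower genes every one lay below. Among all tested genes such separation was found for 1.60% upward and 0.789% downward. By pair, the median difference of the higher genes ran from 0.53 to 0.92 on the log2 scale, and that of the lower genes from -0.68 to -0.41. These pairs are the ones that chose the genes, so the pair values describe the lists and do not test them.

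**Figure D1:**
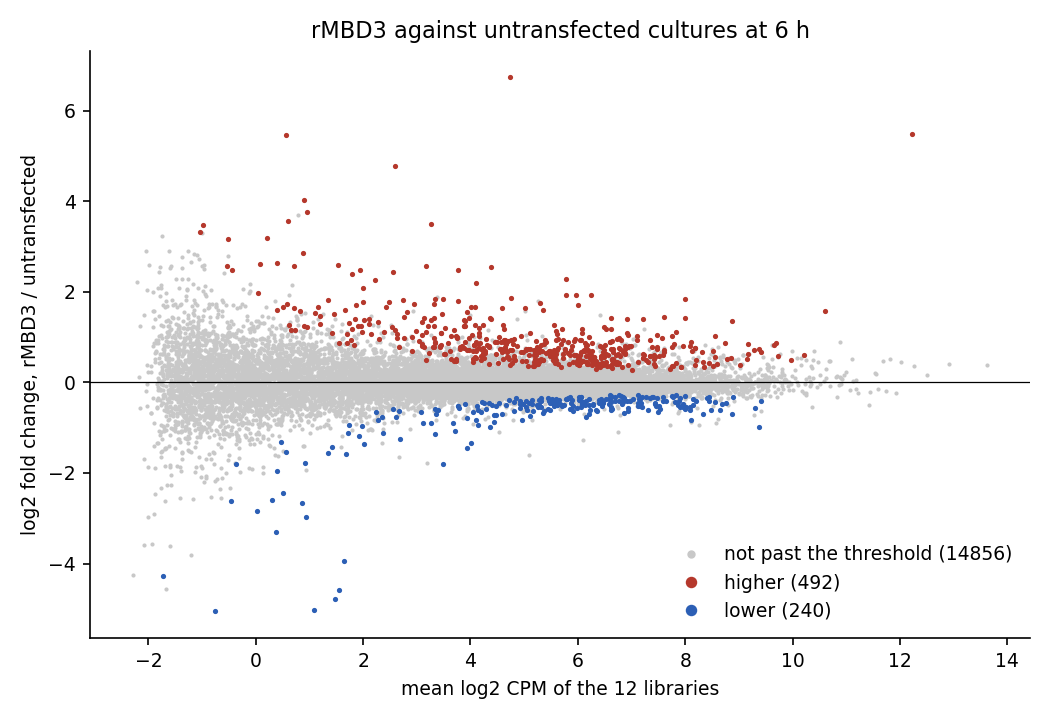
Each point is 1 of the 15588 tested genes, with the mean log2 CPM of the 12 libraries on the horizontal axis and the log2 fold change of rMBD3 over untransfected cultures at 6 h on the vertical axis. The 492 higher genes reach larger fold changes than the 240 lower genes over most of the range of levels, and changes of more than 4-fold lie mostly among genes of low level.

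Called genes are described here by the size of their change and their level, both taken from the libraries that chose them. The 29 higher genes that rose at least 4-fold had a median of 0.454 CPM in untransfected cultures and 4.81 CPM in rMBD3 cultures, and 17 of them were under 1 CPM in untransfected cultures. The 252 higher genes with a log2 change of 0.5 to 1 had medians of 36.9 CPM and 59.6 CPM. The 13 lower genes that fell at least 4-fold went from a median of 2.34 CPM to 0.167 CPM, and the 120 that fell by less than 0.5 on the log2 scale from 101 CPM to 74.0 CPM. A gene of low level can pass the test only with a large change, and a gene low in untransfected cultures can pass the filter through the rMBD3 libraries alone, so the low starting levels follow in part from how the genes were chosen.

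The number of changed genes depended on the libraries used. Without culture 1, 857 genes were higher and 783 lower, so that the share of higher genes among those called went from 67.2% to 52.3%. Leaving out only the untransfected library of culture 1 in magnesium medium, the library with the high mitochondrial share, gave 802 and 626. Without culture 2 the counts were 101 and 24, without culture 3 they were 141 and 21, and without the block on culture number they were 106 and 27. In magnesium medium alone 3 genes were higher and 0 lower by edgeR, with 1305 genes at an unadjusted p under 0.05, and in magnesium-free medium alone 182 were higher and 66 lower.

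Each culture was also set against the genes called from the other cultures. The 101 genes called higher without culture 2 and the 141 called higher without culture 3 were all higher in the culture left out. Their median log2 differences there were 0.99 and 1.02, against 1.24 and 1.13 in the other cultures. The 22 and 20 genes called lower without those cultures, of those tested in all 12 libraries, were all lower in the culture left out. Their medians there were -0.65 and -0.69, against -1.18 and -0.85 in the other cultures. Over all genes 48.9% were higher and 51.1% lower in culture 2, and 50.7% and 49.3% in culture 3. These lists were shorter and of larger change than those called without culture 1. Genes called without culture 1 carried over less fully. Of the 857 higher ones, 74.9% were higher in culture 1, with a median difference of 0.43 there against 0.57 in the other cultures. Of 782 lower ones, 53.1% were lower in culture 1, with a median of -0.02 against -0.40. Over all genes 51.8% were higher and 48.1% lower in culture 1, so the lower genes of cultures 2 and 3 were close to this background in culture 1. The part played by the mitochondrial share of culture 1 in these values was not tested.

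No gene passed the test for a response that differed between the media. The difference was past the threshold for 0 of 15588 genes by edgeR (0% of those tested), with 553 at an unadjusted p under 0.05, where 779.4 would be expected by chance, and a smallest adjusted p of 0.998. A missed threshold with 3 pairs per medium does not show that the effects were equal.

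Of the 4 genes named below, chosen by a rule on size, level and sign in all pairs, the first is by far the most abundant. ENSRNOG00000028956 lies on the plus strand of chr7:9313098-9320165 (mRatBN7.2) and has 7 exon blocks with 1923 exonic bases. It read 178 to 272 CPM in the untransfected libraries (median 206) and 7995 to 10888 CPM in the rMBD3 libraries (median 9511), and 164 to 270 CPM in the GFP libraries (median 181). The rMBD3 libraries all lay far above both other sets, which overlapped each other. The log2 fold change over untransfected cultures was 5.48 ± 0.12 (SE, 6 against 6 libraries from 3 cultures, adjusted p = 2.98e-11 by edgeR). Pair values ran from 5.20 to 5.72, and without culture 1 the fold change was 5.60 (adjusted p = 8.79e-12). Against GFP cultures it was 5.57 ± 0.16 (adjusted p = 3.10e-14), and GFP against untransfected cultures gave -0.10 ± 0.13 (adjusted p = 0.780). Mbd3 lies on the same chromosome, 7, in the symbol table at hand. Whether this is the gene of the construct was not established here.

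The same gene had its highest mean at 2 h in rMBD3 cultures. Its means there were 14535 ± 4032 CPM at 2 h, 9460 ± 1104 CPM at 6 h and 4389 ± 2573 CPM at 24 h. The SD is over 6 libraries each, from 3 cultures in 2 media. Untransfected cultures stayed between 121 and 272 CPM at all 3 times. The 6 h values were scaled among the 18 libraries of 6 h, and those of 2 h and 24 h among all 54 libraries. The fold change against untransfected cultures was 6.54 ± 0.18 at 2 h and 4.19 ± 0.29 at 24 h on the log2 scale (SE). The fall from 6 h to 24 h passed the test of the difference, at -1.30 ± 0.28 (adjusted p = 0.0201), and the difference between 2 h and 6 h, at -1.05 ± 0.27, did not (adjusted p = 0.723). The fall kept its sign but not its call without culture 2 (-1.04, adjusted p = 0.218), without culture 3 (-0.90, adjusted p = 0.684) and without the block on culture number (-1.10, adjusted p = 0.411). Without culture 1 the fall was larger and passed the threshold (-1.89, adjusted p = 6.60e-05). At 24 h the rMBD3 libraries of culture 1 read 7372 and 7990 CPM, and those of cultures 2 and 3 read 2291 to 3181 CPM.

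ENSRNOG00000000500, on the plus strand of chr20:6199182-6228584 with 23 exon blocks, went up in steps across the 3 kinds of culture. It read 0.110 to 0.724 CPM in untransfected libraries (median 0.338, 3 to 23 counts), 1.02 to 3.13 CPM in GFP libraries (median 2.09) and 5.70 to 22.8 CPM in rMBD3 libraries (median 8.20). None of the 3 sets overlapped, and within the rMBD3 set both libraries of culture 1 were highest, at 17.6 and 22.8 CPM. Over untransfected cultures the log2 fold change was 4.78 ± 0.42 (adjusted p = 0.000107), and 4.01 without culture 1 (adjusted p = 3.63e-05). It was 2.45 ± 0.32 against GFP (adjusted p = 0.000849) and 2.32 ± 0.37 for GFP against untransfected cultures (adjusted p = 0.0293). The tests of the 2 steps share libraries. The step from untransfected to GFP cultures passed the threshold without culture 1 (adjusted p = 0.0213), but not without culture 2 or 3 (adjusted p = 0.0965 and 0.381) or without the block on culture number (0.342). At 2 h and 24 h the change over untransfected cultures was 3.59 ± 0.29 and 3.93 ± 0.52 (adjusted p = 6.35e-05 and 0.00603), the latter not past the threshold without culture 2 or 3 (adjusted p = 0.0918 and 0.0712).

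**Figure D2:**
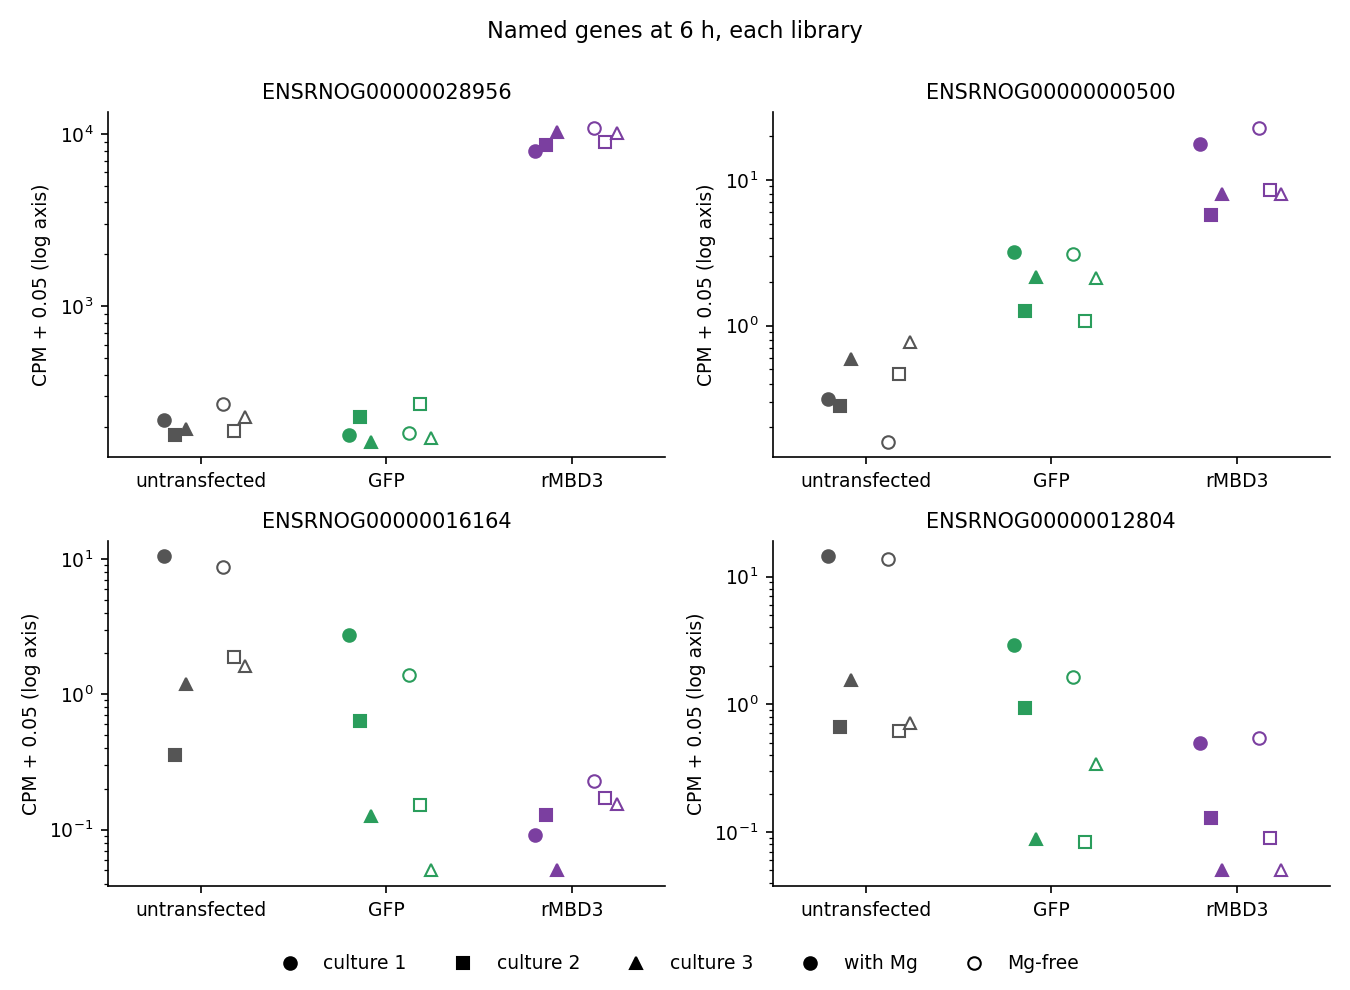
CPM of each named gene in the 18 libraries of 6 h, on a log axis after adding 0.05, with shape for culture number, filled symbols for medium with magnesium and open symbols for medium without it. The top row holds the 2 genes that rose and the bottom row the 2 that fell; for those that fell, the highest untransfected libraries are both of culture 1 and the GFP libraries lie between or overlap the other sets.

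The 2 genes named among those that fell were weakly expressed, and culture 1 had most of their signal. ENSRNOG00000016164, on the minus strand of chr2:172694308-172707051, read 0.309 to 10.4 CPM in untransfected libraries (8 to 277 counts), with culture 1 at 10.4 and 8.64 and the other 4 libraries at 0.309 to 1.84. The rMBD3 libraries read 0 to 0.181 CPM (0 to 4 counts), at or near the floor of 3 counts, and none reached the lowest untransfected library. The log2 fold change was -5.03 ± 0.63 (adjusted p = 0.000918), and -3.88 without culture 1 (adjusted p = 0.0114). Since the rMBD3 values are near the floor, these fitted values depend on how low counts are treated. GFP libraries read 0 to 2.69 CPM and overlapped both sets. GFP against untransfected cultures gave -2.46 ± 0.60 (adjusted p = 0.104) and rMBD3 against GFP -2.55 ± 0.80 (adjusted p = 0.0653), so the fall could not be placed in either step. At 2 h and 24 h the change was -2.38 ± 0.88 and -3.50 ± 1.06, neither past the threshold (adjusted p = 0.209 and 0.108).

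ENSRNOG00000012804, on the minus strand of chr5:149127415-149131017 with 2 exon blocks, had the same layout. Its untransfected values were 14.4 and 13.7 CPM in culture 1 and 0.564 to 1.504 CPM in cultures 2 and 3. The rMBD3 libraries read 0 to 0.496 CPM, highest in culture 1, and all lay below the untransfected libraries. The log2 fold change was -4.78 ± 0.44 (adjusted p = 0.000115), and -4.57 without culture 1 (adjusted p = 0.0134). Against GFP cultures it was -2.61 ± 0.66 (adjusted p = 0.0270), and GFP against untransfected cultures gave -2.09 ± 0.52 (adjusted p = 0.113). It was also lower at 2 h (-3.82 ± 0.74, adjusted p = 0.0154) and at 24 h (-4.34 ± 0.75, adjusted p = 0.0238). These calls were less firm: leaving out any 1 culture put the comparison with GFP at an adjusted p of 0.0572 to 0.179 and the 2 h change at 0.0707 to 0.0818, and the 24 h change missed the threshold without culture 1 or 2 (adjusted p = 0.138 and 0.111). Without the block on culture number the 6 h change over untransfected cultures also missed it (adjusted p = 0.0918), as did the comparison with GFP (0.412) and the changes at 2 h and 24 h (0.380 and 0.352).

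This gene was the middle of 3 adjacent tested genes on the minus strand of chr5:149118846-149136534, all lower, with log2 fold changes of -4.78 to -3.95 and no overlapping spans. Their summed level was 48.2 and 40.6 CPM in the untransfected libraries of culture 1 and 1.66 to 4.15 CPM in those of cultures 2 and 3. In rMBD3 libraries it was 0.0792 to 1.68 CPM, and in GFP libraries 0.229 to 10.1 CPM. Runs of at least 3 adjacent tested genes called in 1 direction, a feature looked for after the values were seen, numbered 5, and the other 4 were all higher. The run at chr4:62932031-63053852 summed to 134 to 292 CPM in untransfected libraries and 346 to 556 CPM in rMBD3 libraries, with no overlap. The run at chr3:88889046-89135458 summed to 105.1 to 342 CPM in untransfected cultures 2 and 3 and 726 to 885 CPM in their rMBD3 partners, but the untransfected libraries of culture 1 stood at 772 and 1173 CPM, with 1309 and 1376 CPM in their rMBD3 partners. The run at chr11:42077621-42179697 summed to 46.9 to 98.1 CPM in untransfected and 72.3 to 195 CPM in rMBD3 libraries, and that at chr20:35468888-36850174 to 114 to 292 CPM and 241 to 352 CPM, and in both the sets overlapped. Whether adjacent genes are copies of one another that share reads was not tested.

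A larger share of the long genes than of the shorter ones was higher, and a smaller share was lower. Of 2183 genes spanning over 100 kb from first to last exon, 114 were higher (5.22%) and 13 lower (0.596%), while of 13405 shorter genes 378 were higher (2.82%) and 227 lower (1.69%). The share of higher genes went from 2.15% for spans up to 10 kb to 5.65% for 200 to 500 kb, while the share of lower genes was 1.49% up to 10 kb, 2.24% at 10 to 20 kb and 0.424% at 200 to 500 kb. Above 500 kb 5 of 200 genes were higher and 0 lower. In each of 5 classes of mean level the percentage higher was larger among the genes over 100 kb, and the percentage lower was smaller in all 5, by a narrow margin in the highest class (3.08% in both). Those shares describe the called genes, and no set test was made.

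The length pattern did not hold in every subset. Without culture 1 the long genes were 8.92% higher and 2.08% lower, against 4.98% and 5.53% of the shorter genes, but without culture 2 the higher shares were 0.638% in both classes. By pair, the median difference of the long genes was 0.03 to 0.26 on the log2 scale in 5 pairs and -0.16 in the pair of culture 1 in magnesium medium. At 2 h 1.79% of long and 1.75% of shorter genes were higher, and at 24 h 0.876% and 0.946%. The lower shares were reversed at those times. They were 0.779% of long and 0.414% of shorter genes at 2 h, and 1.61% and 0.586% at 24 h. For rMBD3 against GFP at 6 h the higher share was again larger among long genes. The lower shares there were 2.14% of long and 2.06% of shorter genes. In GFP cultures between 2 h and 6 h, 40.96% of 2217 long genes fell and 15.2% rose, against 16.8% and 20.98% of 13821 shorter genes.

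**Figure D3:**
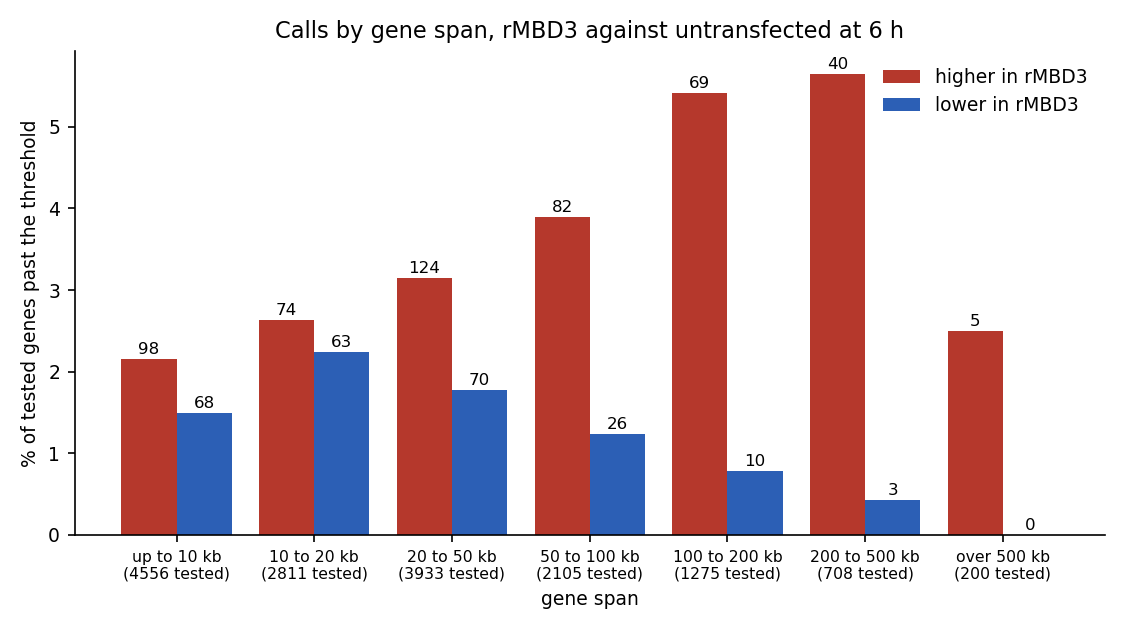
Bars give the percentage of tested genes in each class of gene span that were higher (red) or lower (blue) in rMBD3 than in untransfected cultures at 6 h, with the number of genes above each bar. The higher share reaches 5.65% at 200 to 500 kb, where the lower share is 0.424%, and the class above 500 kb holds only 5 higher genes.

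Over all tested genes 3.16% were higher and 1.54% lower, and the chromosomes named here were picked after their counts were seen, with no test of the difference. Chromosome 10 had 27 higher and 39 lower genes of 1271 tested (2.12% and 3.07%), and chromosome 12 had 7 and 13 of 515 (1.36% and 2.52%), and these were the nuclear chromosomes with more lower than higher genes. Chromosome 11 had 25 higher and 3 lower of 401 (6.23% and 0.748%), chromosome 17 had 27 and 3 of 453 (5.96% and 0.662%), and chromosome 15 had 19 and 1 of 428 (4.44% and 0.234%). Lower genes outnumbered higher ones on chromosomes 10 and 12 also without culture 1 (86 against 58 and 38 against 20), but not without culture 2 (3 against 7, and 0 against 1) or culture 3 (3 against 6, and 1 against 1), nor without the block on culture number (5 against 6, and 0 against 1). Gene length and level were not adjusted for in these counts.

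Mitochondrially encoded genes, which code for parts of the respiratory chain and its translation, are the genes whose counts make up the mitochondrial share described above. Of 37 such genes 22 were tested and 0 passed the threshold by edgeR, with 12 at an unadjusted p under 0.05 and a smallest adjusted p of 0.0590. Their log2 fold changes ran from -0.13 to 0.87 with a median of 0.51, and 20 of 22 were above 0. By pair, the median was 0.45 to 1.05 in 5 pairs and -0.61 in the pair of culture 1 in magnesium medium.

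The same contrast in libraries of other times, which the 6 h comparison did not use, had 343 called genes at 2 h (2.22% of 15463 tested; 1.75% higher and 0.466% lower) and 258 at 24 h (1.67% of 15483; 0.937% higher and 0.73% lower). Without culture 2 these counts were 19 and 10, and without culture 1 or 3 they were 507 and 265 at 2 h and 57 and 32 at 24 h. Of the genes higher at 6 h, 440 of 489 tested at 2 h were above 0 there, with a median log2 fold change of 0.46, and 154 passed the threshold upward and 0 downward. At 24 h 427 of 491 were above 0, with a median of 0.53, and 92 passed upward. The medians of all tested genes were -0.01 at both times. The genes lower at 6 h were below 0 in 214 of 238 cases at 2 h (median -0.23, 27 called) and in 195 of 237 at 24 h (median -0.29, 9 called).

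As shares of each list, the 154 genes higher at both 6 h and 2 h were 31.3% of the 6 h list and 56.8% of the 2 h list. The 92 shared with 24 h were 18.7% and 63.4%. For the lower genes the 27 shared with 2 h were 11.3% and 37.5%, and the 9 shared with 24 h were 3.75% and 7.96%. Higher at all 3 times were 57 genes, and lower at all 3 were 5. Cultures at the different times carry the same culture numbers, so these libraries are separate but not from unrelated cultures.

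**Figure D4:**
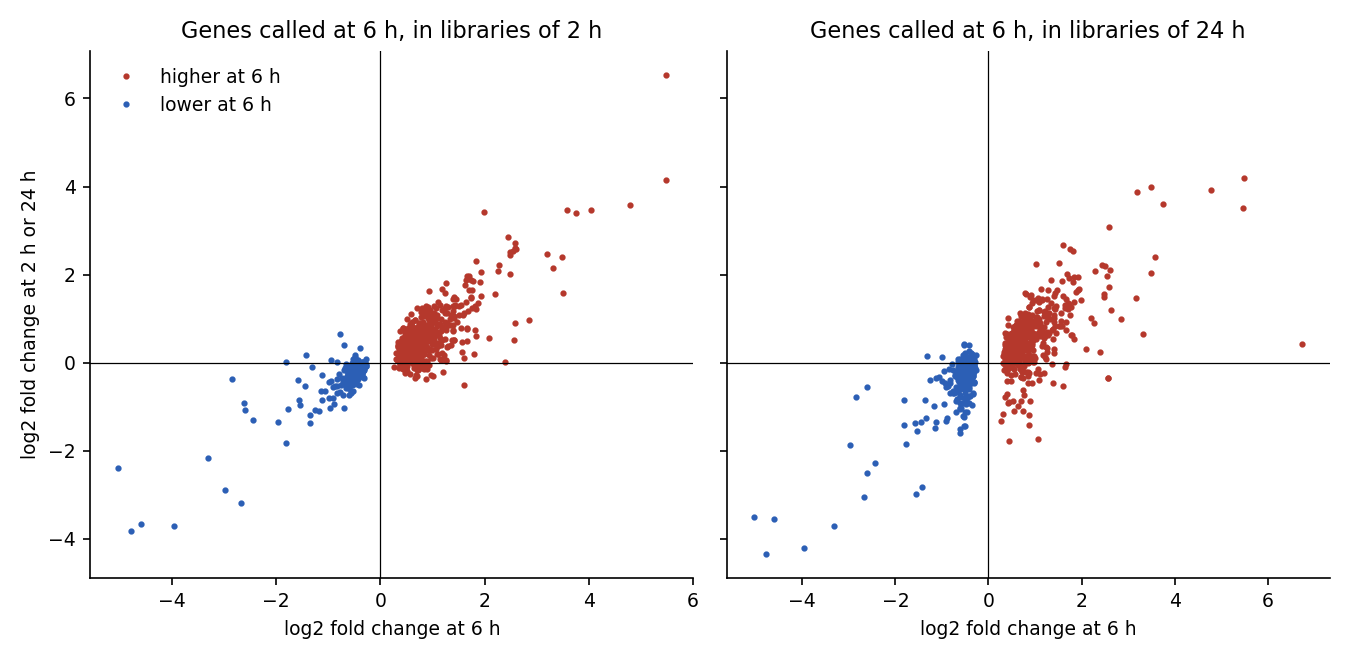
Each point is a gene called at 6 h, with its log2 fold change of rMBD3 over untransfected cultures at 6 h on the horizontal axis and at 2 h (left) or 24 h (right) on the vertical axis. Most higher genes (red) lie above 0 and most lower genes (blue) below 0 at both other times.

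Few genes were shown to respond differently at another time. Whether the rMBD3 effect at 6 h differed from that at 2 h was tested in 1 model, and the difference passed for 0 of 16810 genes by edgeR (0% of those tested), with 819 at an unadjusted p under 0.05 and a smallest adjusted p of 0.435. Between 24 h and 6 h it passed for 281 genes (1.67%), of which 264 (1.57%) had a more negative and 17 (0.101%) a more positive effect at 24 h. These 264 had median effects of -0.05 at 2 h, 0.09 at 6 h and -1.58 at 24 h. Of them, 18 were among the 492 genes higher at 6 h, which were 3.16% of those tested there. The libraries of 6 h and 24 h chose the 264. Their medians at those times and the 18 therefore describe the list and do not test it. Genes over 100 kb made up 36.7% of the 264, against 13.4% of all genes tested. This count was 451 without culture 1, 0 by edgeR without culture 2 (2535 at an unadjusted p under 0.05), 2 without culture 3 and 2 without the block on culture number.

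The GFP libraries place the 6 h genes against a virus that carries GFP without rMBD3. At 6 h, 983 genes differed between rMBD3 and GFP cultures (6.15% of 15985 tested; 652 higher, 4.08%, and 331 lower, 2.07%), and 13 between GFP and untransfected cultures (0.0813%). At an unadjusted p under 0.05 by edgeR there were 3486 genes for rMBD3 against GFP and 2226 for GFP against untransfected cultures. By chance 799.25 would be expected in each. The 2 comparisons share libraries with the main one, so only their own values are set side by side. The genes higher in rMBD3 than in untransfected cultures had medians of 0.77 in that contrast, 0.65 against GFP and 0.17 for GFP against untransfected cultures. The lower genes had medians of -0.50, -0.31 and -0.23. Without culture 1 the counts were 542 and 79, and without cultures 2 and 3 they were 137 and 61 against GFP and 2 and 0 for GFP against untransfected by edgeR (2305 and 1113 at an unadjusted p under 0.05). Without the block on culture number, 27 genes differed between rMBD3 and GFP and 0 between GFP and untransfected cultures (1139 at an unadjusted p under 0.05).

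The libraries of 2 h and 24 h, not used to choose the genes, gave the following for the same steps. At 2 h 2128 genes differed between rMBD3 and GFP (13.5% of 15705; 7.73% higher and 5.82% lower), and 23 between GFP and untransfected cultures (0.146%). The genes higher at 6 h had a median of 0.49 against GFP and 0.04 for GFP against untransfected cultures there, and 232 of them passed upward against GFP and 5 downward. The genes lower at 6 h had medians of -0.07 and -0.12. At 24 h 147 genes differed between rMBD3 and GFP (0.913% of 16104), and 4 between GFP and untransfected cultures (0.0248%). The higher genes had medians of 0.44 and 0.11 there, and the lower genes -0.17 and -0.12. GFP against untransfected cultures had 1426 genes at 2 h and 1085 at 24 h at an unadjusted p under 0.05 by edgeR. By chance 785.25 and 805.2 would be expected. Whether the 2 steps differ in size for either list was not tested.

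**Figure D5:**
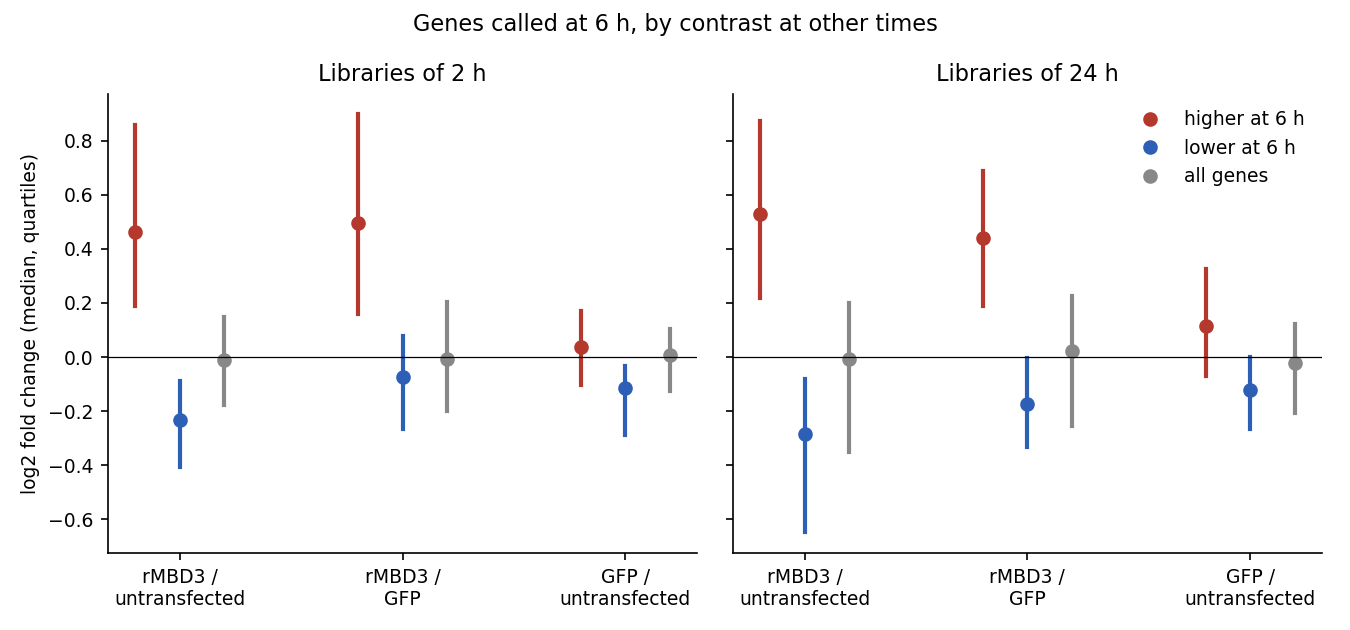
Points are median log2 fold changes, and bars their quartiles over genes, for the genes higher (red) or lower (blue) at 6 h and for all genes (grey), in libraries of 2 h (left) and 24 h (right). The higher genes stand at 0.49 and 0.44 against GFP and at 0.04 and 0.11 for GFP against untransfected cultures, while the lower genes stay between -0.17 and -0.07 in both contrasts.

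The called genes were also followed over time in cultures without rMBD3. In GFP cultures, 242 of the 492 rose and 37 fell between 2 h and 6 h (of 16038 tested genes 40.3% changed, 20.2% rose and 20.1% fell), with a median of 0.52 against 0.01 over all genes. For the 149 genes higher by at least 2-fold, 81 rose, 2 fell and the median was 0.98. From 6 h to 24 h in GFP cultures, 120 of the 492 rose and 96 fell, with a median of 0.07 (of tested genes 42.1% changed, 20.2% rose and 21.9% fell). Of 239 genes lower at 6 h, 78 fell and 50 rose between 2 h and 6 h (median -0.10), and 71 fell and 54 rose between 6 h and 24 h (median -0.01). The cultures at different times are separate dishes, and their order over time was not followed within a dish.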

How the data were processed

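The authors deposited counts of read pairs per gene, made with featureCounts 2.0.0 on the mRatBN7.2 Ensembl annotation (release 105), per the file headers, with strand setting 2 and a minimum mapping quality of 3. The header also gives each gene's exonic length (another deposited value), used here only as description. Per the labels' protocols, a stranded mRNA kit and STAR were used, and rn6 is named there as the build, so coordinates follow the count table. A deposited table of normalized values was not used.

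Groups and culture numbers came from the labels. Low genes were removed with filterByExpr (count of 10, total of 15), libraries were scaled by TMM and genes were tested with edgeR 4.0.16 in R 4.3.3 (quasi-likelihood, Benjamini-Hochberg over all tested genes, threshold 0.05), with medium and culture number as blocks. The effect of time was tested in 36 libraries, and GFP contrasts in the 18 libraries of each time. The main test was also run on simulated counts with the same construct effect in every culture. That run does not cover effects that differ between cultures. DESeq2 1.42.0, RLE scaling, no filter, other sets of libraries and no block were alternatives, and a block for each of the 6 medium and culture pairs was chosen after seeing the data.

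The labels give the same culture number to libraries of one cell culture, and deviations from group means correlated among same-numbered libraries at 0.43 to 0.58 (culture 1), 0.19 to 0.38 (culture 2) and 0.13 to 0.38 (culture 3), so the numbers pair the samples. Without the block, 106 genes were higher and 27 lower. With the block, p-values measure the spread among libraries that remains after culture and medium are accounted for. Libraries of the 2 media of a culture count there as separate, although the 6 pairs come from 3 cultures.

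Named genes were the 2 with the largest rise and the 2 with the largest fall among called genes with a mean log2 CPM of at least 1 and the same sign in all 6 pairs. The comparison, lists and rules were chosen with earlier results of these data known. Planned gene lists and Mbd3 by symbol were not analysed here, because none of the 30560 identifiers was found in the symbol table at hand (GRCr8, 47357 genes).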

Additional observations from a re-analysis of the deposited data

Results flagged for a closer look

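The mitochondrial share of counts in the untransfected libraries of 6 h had 1 library far from the rest: the gap between culture 1 in magnesium medium, at 4.90%, and the next library, at 2.05%, was 0.919 of the range of the 6 values, above the limit of 0.625 for 6 samples. Chance puts about 1 in 20 groups past that limit. Leaving out this library gave 802 higher and 626 lower genes.

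The rMBD3 effect differed between 24 h and 6 h for 281 genes, by the test of the difference itself (edgeR, adjusted p under 0.05), with 17 more positive and 264 more negative at 24 h. The 17 had median effects of -0.26 at 6 h and 0.66 at 24 h, in the libraries that chose them.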

How the results depend on the processing

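The counts of called genes moved widely with the libraries, the block and the tool. For rMBD3 against untransfected cultures at 6 h, the 4 named genes kept their direction under every alternative in which they were tested. Without the replicate block, 106 genes were higher and 27 lower; all 54 libraries gave 131 and 49 without the block and 261 and 149 with it, DESeq2 gave 881 and 472, magnesium medium alone 3 and 0, and magnesium-free medium alone 182 and 66. Of the genes called without the block, all 106 and 27 from the 12 libraries, and 126 and 46 from the 54, were among the main calls. RLE scaling gave 498 and 231, no filter 457 and 195, and a block for each of the 6 pairs, chosen after seeing the data, 460 and 163. Leaving out 1 library or culture gave 101 to 857 higher and 21 to 783 lower genes.

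The same omission of a culture gave 61 to 542 called genes for rMBD3 against GFP at 6 h, 0 to 79 for GFP against untransfected at 6 h, 19 to 507 for rMBD3 against untransfected at 2 h, 10 to 57 at 24 h, 0 to 1 for the difference between 6 h and 2 h, 0 to 451 for that between 24 h and 6 h, and 0 for the difference between media. Without the replicate block these were 27, 0, 87, 25, 0, 2 and 0. The causes were not tested.

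ENSRNOG00000012804 missed the threshold without the replicate block (adjusted p = 0.0918; 0.163 with all 54 libraries and no block) and in magnesium medium alone (0.124), where ENSRNOG00000000500 also missed it (0.107) and ENSRNOG00000016164 was filtered out. Leaving out libraries moved the median of mitochondrially encoded genes between 0.32 and 0.72. Depth limits genes near 3 counts per library, such as the rMBD3 values of the 2 genes named among those that fell.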
